A study of Mus musculus with 20 samples.

Results

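The 9 genes described here, Scx, Mkx, Tnmd, Fmod, Thbs4, Comp, Tnc, Kera and Chad, are genes of tendon and of its fibroblasts, the tenocytes. They were taken by name from the 54532 genes of the count tables, and all 9 were found in both tables. The 20 RNA-seq libraries came from the plantaris of male C57BL/6J mice aged 5 months, 10 days after surgery, from 10 mice with 5 for each surgery. MOV (mechanical overload) was synergist ablation on both sides, in which part of the gastrocnemius and soleus was removed so that the plantaris bore more load, and the comparison group had sham surgery. At surgery the left plantaris received a control lentivirus and the right plantaris a lentivirus for a miR-1 mimic, both with Turbo-GFP as the reporter and, as the study describes them, a mouse CMV promoter, so that every muscle sequenced had been injected with a virus. The 4 groups of 5 libraries are called MOV control, MOV mimic, sham control and sham mimic. MOV and sham libraries were from different mice, whereas mimic and control libraries were from opposite legs of the same mice. The CMV promoter is not restricted to muscle fibers, the counts hold no mature miR-1, and total counts were between 12036360 and 23056525 per library.

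Tendon is made by fibroblasts that lay down type I collagen in parallel fibrils. Scleraxis (Scx) and Mohawk (Mkx) are transcription factors of that lineage, and tenomodulin (Tnmd) is a membrane protein of mature tenocytes whose expression depends on Scx. Fibromodulin (Fmod), keratocan (Kera) and chondroadherin (Chad) are leucine-rich proteins of the matrix, of which the first 2 bind collagen fibrils and the last binds collagen and cells. Thrombospondin-4 (Thbs4) and COMP (Comp) are pentameric matrix proteins, and tenascin-C (Tnc) is a matrix glycoprotein of tendon and of the junction between muscle and tendon that is also made by fibroblasts of injured or loaded tissue. A dissected plantaris carries some tendon at its ends and an aponeurosis on its surface. Expression of these genes can therefore differ between muscles through the amount of tendon in the sample, the number of such cells or the RNA per cell, and in bulk samples fewer cells of a type and less RNA per cell cannot be told apart. The tendon content of each sample was not measured.

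For 6 of the 9 genes, 7 windows of 250 bases before the start were taken from the RefSeq promoter table of GRCm38.p6. Scx and Comp had no entry in that table. Mkx was left out of the search, so its promoter was not examined. Sequences of Tnmd, Thbs4 and Tnc are shown because these genes stood at different places in the pattern of variation below, Tnmd with the core tendon genes, Tnc apart from them and Thbs4 between. Capitals mark matches to CANNTG (E-box, the element bound by basic helix-loop-helix factors such as Scx).
Tnmd, chrX:133850758-133851007, plus strand: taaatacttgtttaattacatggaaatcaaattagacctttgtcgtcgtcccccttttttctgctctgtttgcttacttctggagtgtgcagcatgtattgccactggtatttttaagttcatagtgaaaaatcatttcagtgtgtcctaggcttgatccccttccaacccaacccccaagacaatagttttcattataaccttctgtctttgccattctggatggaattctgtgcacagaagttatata
Thbs4, chr13:92794819-92795068, minus strand: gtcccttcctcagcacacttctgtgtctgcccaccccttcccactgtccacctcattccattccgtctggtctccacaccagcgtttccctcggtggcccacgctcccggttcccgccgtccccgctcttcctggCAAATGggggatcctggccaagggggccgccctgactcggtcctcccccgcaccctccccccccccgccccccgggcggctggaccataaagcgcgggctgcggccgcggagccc
Tnc, chr4:64047016-64047265, minus strand: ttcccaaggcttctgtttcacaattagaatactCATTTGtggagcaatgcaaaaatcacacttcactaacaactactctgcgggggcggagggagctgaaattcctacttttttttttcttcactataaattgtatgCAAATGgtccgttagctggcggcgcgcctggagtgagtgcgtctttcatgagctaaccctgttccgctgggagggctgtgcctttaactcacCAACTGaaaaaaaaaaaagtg
The windows are given 5′ to 3′ on the strand of the gene and end at the base before the start of transcription. The Tnmd window held no match, that of Thbs4 held 1, beginning at base -115, and the upstream window of Tnc held 3, at -217, -113 and -21. Fmod and Chad had 1 each, Kera had none, and a second, overlapping Tnc window had 2. A match was found in 66.2% of all 32851 promoter windows of the same length, so that these counts are a description of the letters and nothing more. On both strands, GGAATG (a TEAD element) was found in 12.6% of all windows and 2 times here, both in the Thbs4 window. TGANTCA (AP-1) was found in 6.75% of all windows and in none of the 7, and CAGAC (SMAD) in 42.2% of all and in the windows of Fmod, Thbs4 and the second of Tnc.

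Levels between genes were compared as CPM (counts scaled by library size with TMM normalization) per kilobase of exon. Over the 20 libraries the median was 145 CPM per kilobase for Thbs4, 56.8 for Tnmd, 36.2 for Fmod, 21.8 for Tnc, 20.4 for Scx, 16.2 for Kera, 14.5 for Comp, 3.31 for Chad and 1.61 for Mkx. Ranges between libraries were wide. Tnmd lay between 9.88 and 120.1 CPM per kilobase, and Fmod, the next in order, between 10.0 and 63.2. Tnc, Scx, Kera and Comp overlapped one another over most of their ranges, and their order did not exceed the spread between libraries. All other values below are CPM without length, and are compared only within a gene.

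Neither transcription factor was called between groups, and Scx had its lowest levels in sham libraries. Scx (ENSMUSG00000034161, chr15:76457411-76459468 on GRCm38.p6, as are the positions below) was at 11.5, 18.8, 32.4, 17.7 and 15.9 CPM in sham control libraries 1 to 5, at 13.9, 12.9, 37.0, 23.3 and 17.7 in sham mimic, at 38.7, 24.3, 28.3, 18.7 and 22.5 in MOV control and at 29.1, 23.2, 26.0, 40.0 and 36.3 in MOV mimic. Each sham group also had a library that reached the levels of MOV libraries and all groups overlapped. Mean levels were 19.3 ± 7.85 CPM (SD, n = 5) in sham control and 26.5 ± 7.65 in MOV control, a log2FC of 0.47 ± 0.26 (SE; adjusted p = 0.373, edgeR), and the log2FC between the mimic groups was 0.56 ± 0.28 (adjusted p = 0.402, edgeR). Mkx was the lowest of the 9 genes per length, at 2.72, 7.03, 6.28, 5.51 and 2.10 CPM in sham control, 2.13, 2.14, 7.97, 5.55 and 6.43 in sham mimic, 4.09, 7.45, 5.17, 1.33 and 1.14 in MOV control and 9.25, 10.9, 3.44, 4.58 and 5.14 in MOV mimic. No order of the groups was seen, with -0.28 as log2FC for MOV control against sham control and 0.46 for the mimic groups (adjusted p = 0.804 and 0.665, edgeR).

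Tnmd, the defining gene of tenocytes among the 9, varied more within each group than between groups. Tnmd (ENSMUSG00000031250, chrX:133851008-133865577) was at 13.5, 61.8, 127, 82.8 and 45.8 CPM in sham control, 26.2, 37.9, 163, 84.0 and 71.4 in sham mimic, 81.8, 153, 137, 24.3 and 13.4 in MOV control and 81.3, 130.5, 72.4, 43.4 and 157 in MOV mimic. The lowest library of the series, MOV control 5, was at 13.4 CPM, next to sham control 1 at 13.5 CPM, and the highest was in sham mimic. Means were 66.2 ± 42.3, 76.4 ± 53.6, 81.9 ± 63.4 and 96.8 ± 45.8 CPM (SD, n = 5 each). The log2FC of MOV against sham was 0.31 ± 0.63 in control and 0.35 ± 0.46 in mimic (adjusted p = 0.830 and 0.768, edgeR), which is less than the spread between libraries, and the value in control ranged from -0.040 to 0.69 when each library was left out in turn.

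Among the leucine-rich matrix genes, Fmod and Kera overlapped between MOV and sham in both control and mimic. Fmod (ENSMUSG00000041559, chr1:134037254-134048280) was at 103, 209, 160.3, 107 and 103 CPM in sham control, 141, 81.7, 208, 156 and 152 in sham mimic, 110.0, 144, 148, 45.9 and 33.1 in MOV control and 63.5, 143, 95.1, 46.6 and 129 in MOV mimic. The MOV groups reached below the sham groups and overlapped them, with a log2FC of -0.50 ± 0.38 in control and -0.62 ± 0.31 in mimic (adjusted p = 0.518 and 0.408, edgeR). Kera (ENSMUSG00000019932, chr10:97606962-97613688) was at 11.5, 50.1, 36.7, 40.3 and 22.5 CPM in sham control, 21.2, 16.8, 67.4, 49.1 and 31.9 in sham mimic, 17.6, 35.3, 43.4, 4.13 and 5.72 in MOV control and 32.1, 52.6, 23.1, 9.08 and 73.2 in MOV mimic. MOV control 4 and 5 had the least Kera, as they had the least Fmod, Comp and Chad of their group. The log2FC of Kera was -0.59 ± 0.57 in control and 0.042 ± 0.49 in mimic (adjusted p = 0.626 and 0.978, edgeR).

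Chad had the largest differences of the 9 genes between MOV and sham, and they were toward lower levels. Chad (ENSMUSG00000039084, chr11:94565047-94569127) was at 7.78, 21.6, 9.52, 4.80 and 10.7 CPM in sham control, 18.1, 7.54, 11.2, 14.8 and 10.3 in sham mimic, 5.00, 4.66, 6.13, 0.953 and 0.644 in MOV control and 4.57, 4.64, 3.12, 0 and 1.59 in MOV mimic. Every MOV mimic library was below every sham mimic library, and in control only sham control 4 was within the range of MOV control. MOV mimic 4 had 0 counts of Chad, for which counting error alone allows up to 3 counts, and the other MOV mimic libraries had at most 99 counts. The mean was 10.9 ± 6.39 CPM in sham control and 3.48 ± 2.51 CPM in MOV control (SD, n = 5), a log2FC of -1.62 ± 0.56 (adjusted p = 0.154, edgeR), and was 12.4 ± 4.11 in sham mimic and 2.78 ± 2.00 in MOV mimic, a log2FC of -2.12 ± 0.63 (adjusted p = 0.274, edgeR). Exact two-sided permutation tests over the samples, not adjusted, gave p = 0.024 and 0.0079, the second being the smallest that 5 against 5 can give. DESeq2 called Chad lower in both comparisons (adjusted p = 0.041 and 0.040), so the call depended on the tool.

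Neither thrombospondin gene was called between groups. Thbs4 (ENSMUSG00000021702, chr13:92751586-92794818) was at 147, 399, 599, 435 and 254 CPM in sham control, 169, 419, 646, 441 and 512 in sham mimic, 439, 727, 768, 414 and 261 in MOV control and 509.9, 804, 615, 536 and 578 in MOV mimic. The lowest levels were those of library 1 of each sham group, and all groups overlapped. The log2FC was 0.52 ± 0.36 in control and 0.48 ± 0.28 in mimic (adjusted p = 0.478 and 0.483, edgeR). Comp (ENSMUSG00000031849, chr8:70373548-70382066) was at 10.7, 51.9, 43.0, 42.0 and 24.4 CPM in sham control, 16.5, 13.7, 52.4, 57.5 and 37.9 in sham mimic, 29.1, 42.6, 39.6, 10.7 and 6.08 in MOV control and 26.4, 40.5, 32.2, 13.9 and 72.7 in MOV mimic. No group stood apart, with a log2FC of -0.41 ± 0.50 in control and 0.072 ± 0.46 in mimic (adjusted p = 0.701 and 0.960, edgeR).

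Tnc had the largest difference toward higher levels. Tnc (ENSMUSG00000028364, chr4:63959785-64047015) was at 9.80, 39.9, 177, 119 and 64.5 CPM in sham control, 13.2, 55.0, 97.5, 126 and 159 in sham mimic, 303, 306, 186, 192 and 148 in MOV control and 169, 215, 189.7, 214 and 196 in MOV mimic. Every MOV mimic library was above every sham mimic library, and in control sham library 3 lay within the range of MOV control. Means were 82.0 ± 66.5 CPM in sham control and 227 ± 72.7 in MOV control (SD, n = 5), a log2FC of 1.47 ± 0.55 (adjusted p = 0.177, edgeR). In the mimic groups they were 90.0 ± 57.4 and 197 ± 18.9 CPM, a log2FC of 1.13 ± 0.45 (adjusted p = 0.327, edgeR). Exact two-sided permutation tests over the samples, not adjusted, gave p = 0.016 in control and 0.0079 in mimic, the latter again the smallest possible. The spread also differed. The SD of log2 CPM was 1.62 in sham control and 1.43 in sham mimic, and 0.46 in MOV control and 0.14 in MOV mimic, as the sham control libraries reached from 9.80 to 177 CPM and the MOV mimic libraries from 169 to 215 CPM. Library 1 was the lowest of each sham group, and without it the SD was 0.95 in sham control and 0.66 in sham mimic. These 2 libraries also had the lowest TMM factors of the 20, 0.79 and 0.78. The difference in spread was not tested.

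**Figure D1:**
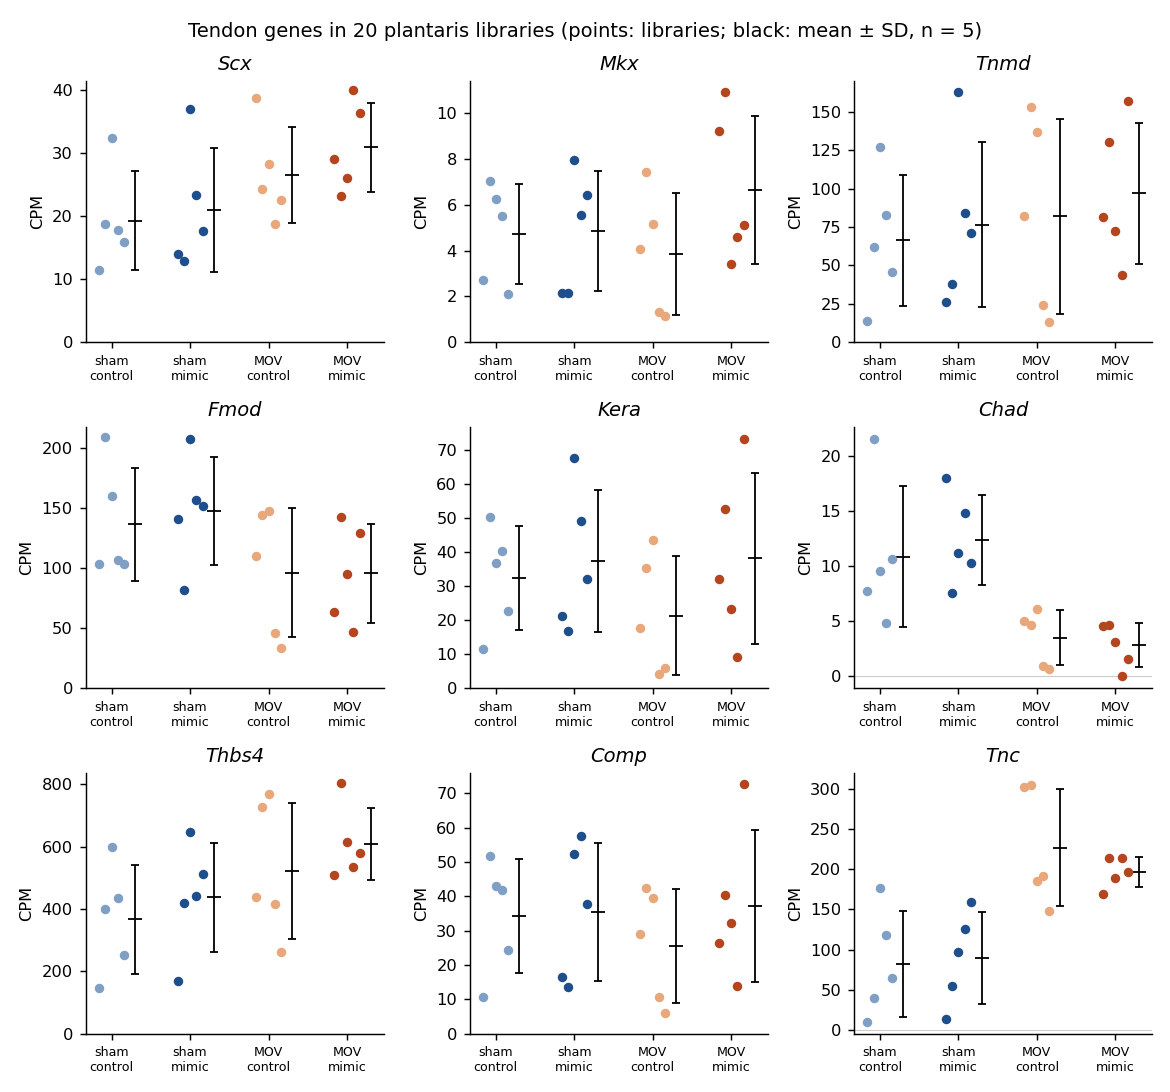
CPM of each of the 9 genes (vertical axis, from 0) in the 4 groups, each point a library and each black mark the mean ± SD of 5 libraries. Chad in MOV mimic lies below all sham mimic libraries and Tnc in MOV mimic above them, while the other 7 genes overlap between all groups.

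None of the 9 genes was a DEG in MOV control against sham control or in MOV mimic against sham mimic by edgeR at an adjusted p of 0.05. The background was close to none as well. Of 14974 genes tested in control, 0% were called higher and 0.00668% lower, the latter being Nos1 alone, and of 14918 in mimic 0% were called in either direction. In control 2726 genes, or 18.2%, had an unadjusted p under 0.05, and 578 had an adjusted p under 0.10. The number of calls at 0.05 differed between settings of the test, and the cause was not tested. Of the 9 genes 2, Tnc and Chad, had an unadjusted p under 0.05, and the same 2 did in mimic, where 1997 genes (13.4%) did. The median log2FC of the 9 was -0.28 in control, beside 0.040 over all genes, and 0.35 in mimic, beside 0.017. With DESeq2, 2.6% of genes were higher and 3.45% lower in control, and 0.784% higher and 0.617% lower in mimic, and Chad was the 1 gene of the 9 called, lower in both. In control no gene of the 9 had groups without overlap, where 2.45% of all genes tested were wholly higher and 2.45% wholly lower. In mimic Tnc was 1 of the 0.992% that were wholly higher and Chad 1 of the 1.74% that were wholly lower. The 2 comparisons share no library, although the libraries came from opposite legs of the same mice.

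Within groups, each of the 9 genes had a larger pooled SD than the median gene, by the least for Scx. The SD of log2 CPM within groups was 1.41 for Chad, 1.17 for Tnmd, 1.12 for Kera, 1.11 for Tnc, 1.01 for Comp, 0.89 for Mkx, 0.69 for Fmod, 0.64 for Thbs4 and 0.48 for Scx, beside a median of 0.36 over the 13952 genes with a mean of at least 1 CPM. The value for Chad rests on MOV mimic 4, whose 0 counts leave its log2 CPM to the added prior. Without that library it was 0.93, below 1.17 for Tnmd, 1.14 for Tnc, 1.04 for Kera and 0.98 for Comp. An SD above that of the median gene was not seen in each group. In MOV mimic the SD was 0.33 for Scx, 0.26 for Thbs4 and 0.14 for Tnc, beside a median of 0.40 over all genes. Much of the variation was shared between genes. After the group means were taken away, Tnmd and Comp had a Pearson r of 0.94 over the 20 libraries, Comp and Kera 0.93 and Tnmd and Kera 0.90. The 10 pairs among Tnmd, Comp, Kera, Fmod and Mkx had r between 0.75 and 0.94. These libraries came from 10 mice and share the composition of the muscle sample, so the correlations are a description of how the genes varied together and carry no test.

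Tnc, Scx and Chad followed that core less closely. Tnc had an r of 0.80 with Thbs4 and 0.68 with Tnmd, but 0.41 with Kera, 0.23 with Fmod and -0.037 with Chad. Scx, a factor upstream of Tnmd in tendon development, had an r of 0.63 with Tnmd and -0.040 with Chad. Chad was closest to Fmod, at 0.72, and to Kera, at 0.67. Thbs4 was close to Tnmd, at 0.87, as well as to Tnc. Over all 36 pairs the median r was 0.65. MOV control 4 and 5 show the separation within single libraries. They had 24.3 and 13.4 CPM of Tnmd, the lowest of their group, with 192 and 148 CPM of Tnc. The first of these Tnc levels was above all sham control libraries and the second above 4 of 5.

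**Figure D2:**
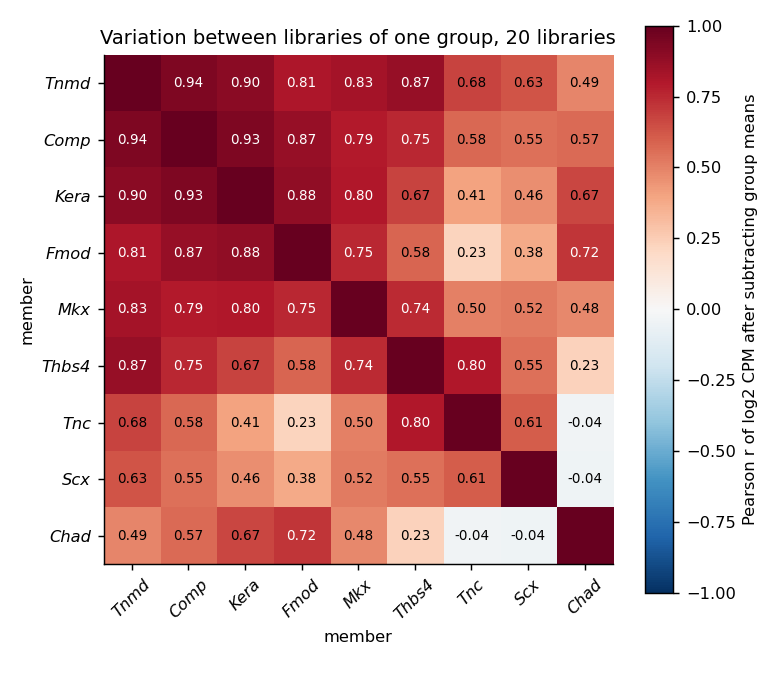
Pearson r between the log2 CPM of each pair of the 9 genes over 20 libraries, after the mean of each group was subtracted. Tnmd, Comp, Kera, Fmod and Mkx form a block with r from 0.75 to 0.94, and Tnc reaches 0.80 with Thbs4 but -0.037 with Chad.

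Over the same 20 libraries, the 5 genes outside the 9 with the highest r to Tnmd were Col11a1 (0.94), Clec11a (0.94), Fndc1 (0.93), Abi3bp (0.93) and Plxdc2 (0.93). Col11a1 is a fibril collagen of cartilage and tendon, and Abi3bp and Fndc1 are genes of matrix proteins. Col11a1 was at 35.3 CPM in sham control and 49.2 in MOV control, and Abi3bp at 60.9 and 53.4. The 5 closest to Tnc were Fbn2 (0.96), Fkbp10 (0.96), Runx1 (0.95), Wisp1 (0.95) and Hhipl1 (0.95). Fbn2 encodes a microfibril protein, Fkbp10 a collagen chaperone of the endoplasmic reticulum, Runx1 a transcription factor and Wisp1 a matricellular protein. The mean of Runx1 was 18.1 CPM in sham control and 49.0 in MOV control, 25.4 in sham mimic and 42.3 in MOV mimic.

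**Figure D3:**
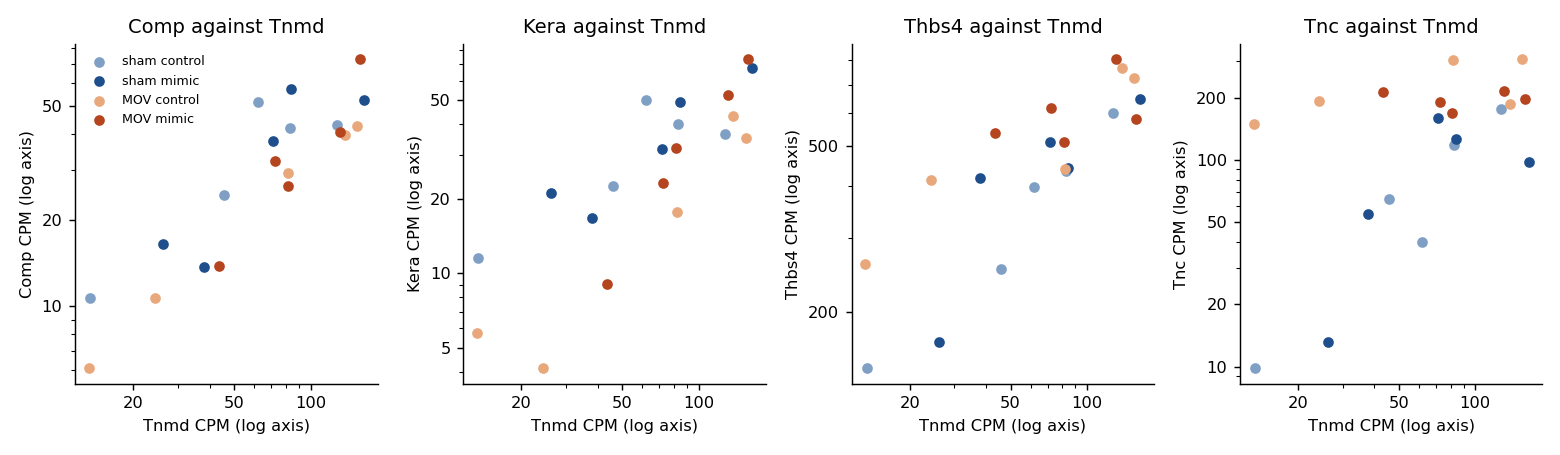
CPM of Comp, Kera, Thbs4 and Tnc (vertical, log axis) against CPM of Tnmd (horizontal, log axis), each point a library coloured by group. Comp and Kera go with Tnmd in all groups, whereas the lowest Tnc level is 148 CPM in MOV control, at 13.4 CPM of Tnmd, and 9.80 CPM in sham control, at 13.5 CPM of Tnmd.

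To set the genes against the tenocyte signal of the same library, the log2 ratio of each gene to Tnmd was taken (a prior of 2 counts was added), as a description with no test. The ratio of Tnc was 0.080 ± 0.57 in sham control and 1.95 ± 1.28 in MOV control (SD, n = 5), and 0.11 ± 0.92 and 1.16 ± 0.75 in the mimic groups, a difference of 1.87 and 1.05. The groups still overlapped in both. The ratio of Chad was -2.44 ± 1.42 in sham control and -4.43 ± 0.39 in MOV control, and in the mimic groups it was -2.39 ± 1.20 and -5.69 ± 1.85, without overlap. The lowest of these ratios, in MOV mimic 4 with 0 counts of Chad, was set by the prior of 2 counts, and without that library the difference in mimic went from -3.30 to -2.58. For Kera the difference between MOV and sham was -1.07 in control and -0.59 in mimic, for Comp -0.68 and -0.40, and for Fmod -0.78 and -1.18. For Thbs4 it was 0.46 and 0.098, and for Scx 0.40 and 0.15. Against Kera in place of Tnmd, the difference of Tnc was 2.94 and 1.64, and that of Chad -0.92 and -2.71, while that of Comp was 0.39 and 0.19 and so turned its direction. Scx was then at 1.47 and 0.74, and Thbs4 at 1.53, without overlap, and 0.69, with overlap, so that both lay further above their sham groups than against Tnmd. Tnc was higher and Chad lower relative to both references, while the sizes for all genes, and the direction for Comp, Fmod and Mkx in control and for Comp in mimic, depended on which of the 2 was used.

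**Figure D4:**
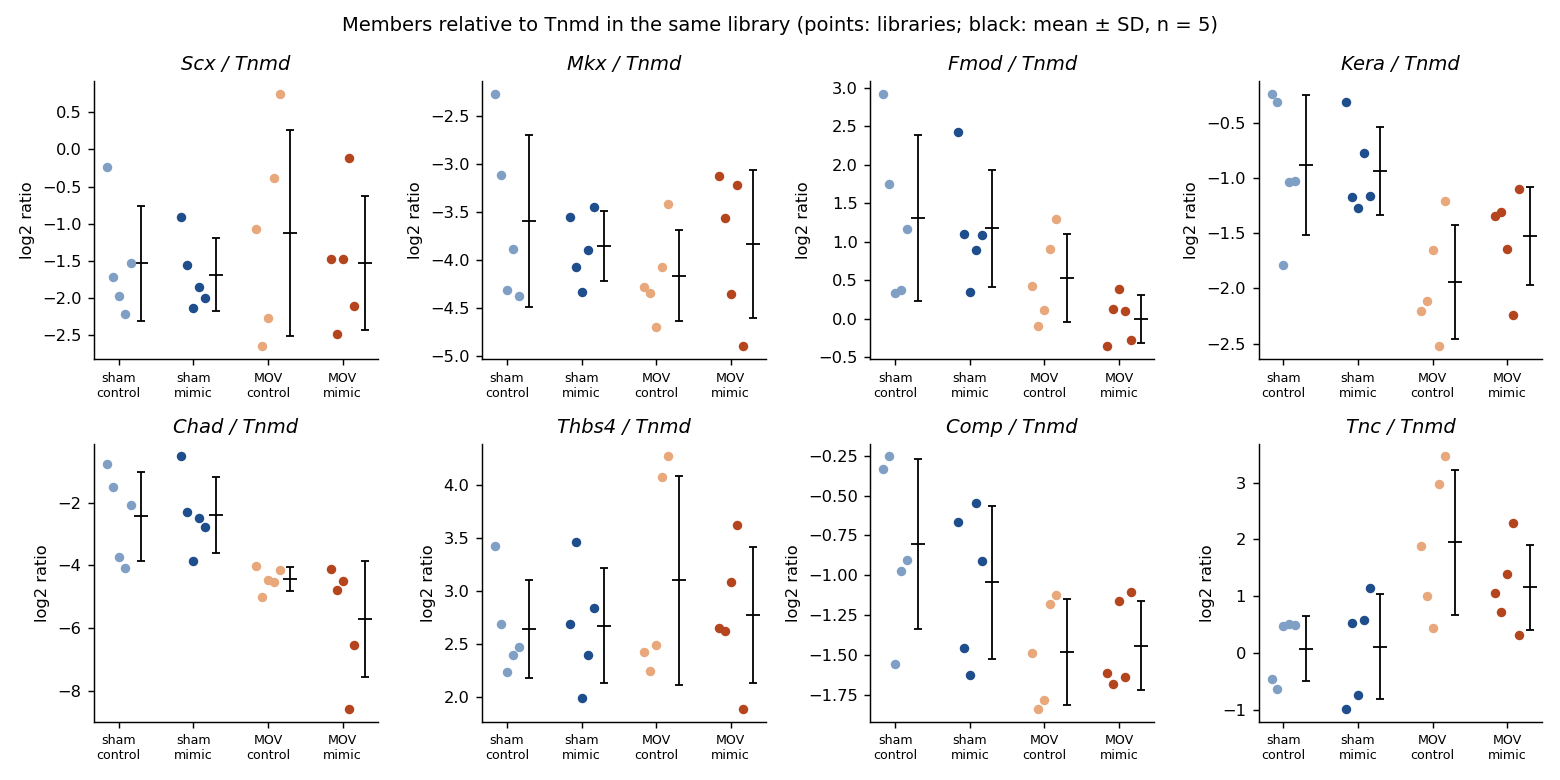
Log2 ratio of each other gene to Tnmd in the same library (vertical) in the 4 groups, each point a library and each black mark the mean ± SD of 5. The ratio of Chad in MOV mimic lies below all sham mimic libraries, and that of Tnc has a higher mean in MOV than in sham with overlap.

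The same question was put to all genes by adding the log2 CPM of Tnmd to the edgeR fit as a covariate, which was done after the values had been seen. In control 2.53% of genes were then called higher and 3.42% lower, and 4 of the 9 genes were among them, Tnc with a log2FC of 1.79 (adjusted p = 0.033), Chad with -2.01 (adjusted p = 0.033), Kera with -1.01 (adjusted p = 0.046) and Comp with -0.67 (adjusted p = 0.043), all by edgeR. Thbs4, at 0.53 (adjusted p = 0.061), and Fmod, at -0.76 (adjusted p = 0.072), were near the threshold in edgeR, and the fold of Tnmd itself has no meaning in this fit. These calls did not hold under other settings. When each of the 10 libraries was left out in turn, Tnc and Chad were called in 4 fits each, Kera in 2 and Comp in 1, and between 0 genes (without MOV control 1) and 1186 genes (without sham control 3) were called in all. With Kera as the covariate none of the 9 genes and no gene of 14974 was called in control, the log2FC of Tnc was 1.95 (adjusted p = 0.090, edgeR) and that of Chad -1.23 (adjusted p = 0.102, edgeR). In mimic the Tnmd covariate gave 0% called in either direction, with 1.08 (adjusted p = 0.310) for Tnc and -2.20 (adjusted p = 0.277) for Chad in edgeR. Directions of Tnc and Chad were kept in each of these fits, and the size of the log2FC of Tnc in control ranged from 1.38 to 2.11 and that of Chad from -2.33 to -1.66 over the 10 fits.

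**Figure D5:**
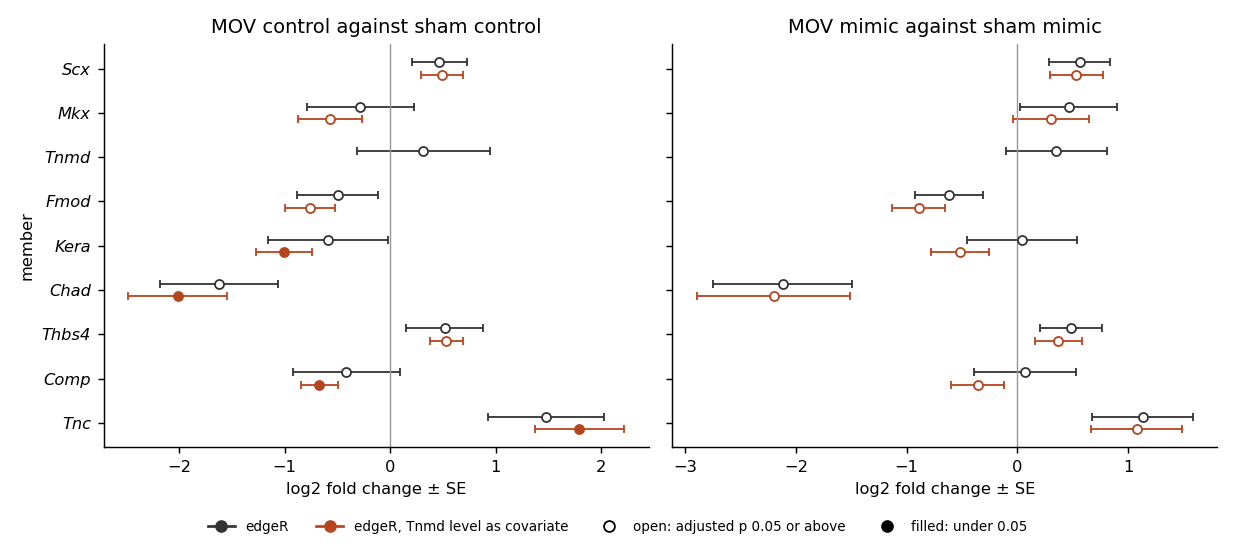
Log2 fold change ± SE of MOV against sham in control and in mimic for the 9 genes by edgeR, without (black) and with (red) the Tnmd level as a covariate. Filled points, for Kera, Chad, Comp and Tnc in control with the covariate, have an adjusted p under 0.05, and no point is filled without it.

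None of the 9 genes was called between mimic and control, in MOV or in sham, by edgeR or DESeq2. For MOV mimic against MOV control, 0% of 15220 genes tested were called in either direction and 641 had an unadjusted p under 0.05, none of them among the 9. The log2FC was 0.85 ± 0.62 for Kera, 0.80 ± 0.51 for Mkx, 0.55 ± 0.51 for Comp and -0.20 ± 0.20 for Tnc, with adjusted p = 0.999 for each of these in edgeR. Kera was highest in MOV mimic 5, at 73.2 CPM, and lowest in MOV control 4, at 4.13 CPM, and the groups overlapped. For sham mimic against sham control, 0% of 14746 genes were called either way, 254 had an unadjusted p under 0.05, and the 9 log2FC lay between 0.037 and 0.25, each smaller than its SE. These fits do not match the 2 legs of a mouse. The difference between the responses to MOV in mimic and in control, tested as the interaction on 20 libraries, was called for 0% of 16166 genes in either direction (426 with an unadjusted p under 0.05), and for the 9 genes was largest for Mkx, at 0.75 ± 0.71 (SE), and Kera, at 0.62 ± 0.82.

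Genes that work with the 9 were followed as lists, none of which had a member called by edgeR in either MOV comparison without a covariate. With Tnmd as the covariate edgeR called 1 higher (Col12a1) and 2 lower (Dcn and Prelp) of the 14 collagens and proteoglycans below in control, 2 higher and 5 lower of the 10 other tendon markers and 2 higher of the 6 myotendinous junction genes, where 2.53% of all genes were higher and 3.42% lower, and in mimic it called none. Calls in that fit were not limited to tendon lists, as 1 of 6 cartilage genes, 2 of 4 endothelial genes and 1 each of 7 progenitor, 8 leukocyte and 8 muscle fiber markers were lower and 1 of 6 satellite cell and regeneration genes was higher. Of the 14 fibril collagens and small proteoglycans, the bulk of tendon matrix, 0 rose and 0 fell by edgeR or DESeq2 in control, 2 had an unadjusted p under 0.05 by edgeR there (Dcn and Prelp, both with negative log2FC), and the median log2FC was 0.39 in control and 0.17 in mimic. Their summed level lay between 1508 and 14096 CPM in sham control and between 4160 and 16284 CPM in MOV control, and the median r of the list was 0.83 to Tnmd and 0.88 to Tnc. Of 12 genes of TGF-β and mechanical signalling, 3 had an unadjusted p under 0.05 in control, all higher, with a median log2FC of 0.55, and 1 did in mimic. Over all genes tested, 18.2% had such a p in control and 13.4% in mimic, in either direction. Ccn1, a matricellular target of YAP, was the largest of them at 1.46 ± 0.47 (adjusted p = 0.131, edgeR), and Egr2, a transcription factor induced by load in tendon cells, was at 1.16 ± 0.43 (adjusted p = 0.181, edgeR). These genes, and those named in the next paragraph, were chosen after their values were seen.

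Of 10 other markers of tendon and its sheath, 4 were called lower and 0 higher by DESeq2 in control (all genes, 3.45% and 2.6%), and 1 lower in mimic (all genes, 0.617%). Angptl7, a secreted protein of tendon and other connective tissue, had a mean of 13.9 ± 7.53 CPM in sham control and 2.09 ± 1.94 in MOV control without overlap, a log2FC of -2.70 ± 0.55 (adjusted p = 0.055, edgeR), and -2.19 ± 0.67 in mimic (adjusted p = 0.285, edgeR). Prg4 (lubricin), Tppp3 and Clec3b, found in the sheath and the loose tissue around tendon, had log2FC of -1.39, -1.05 and -0.99 in control (adjusted p = 0.063, 0.154 and 0.132, edgeR), and -0.64, -0.36 and -0.68 in mimic (adjusted p = 0.628, 0.663 and 0.556, edgeR). Cilp, an extracellular matrix protein of the same list, was at 1.60 in control (adjusted p = 0.116, edgeR) and 0.51 in mimic (adjusted p = 0.695, edgeR). Of 9 cartilage and fibrocartilage genes 6 passed the filter on low counts, and 1 of them, Col9a1, was lower by DESeq2 in control (3.45% of all genes), with -1.56 ± 0.27 by edgeR (adjusted p = 0.055). The other 5 lay in both directions and none was called. Col2a1, the main collagen of cartilage, was at 0.11 in control and -1.30 in mimic, Matn3 at -0.34 and 0.52, and Col11a1 at 0.49 and 0.54. Sox9, a transcription factor of cartilage, was at 1.19 in control and 1.00 in mimic (adjusted p = 0.191 and 0.337, edgeR), Acan (aggrecan) at 1.49 and 0.64, and the list median was 0.30 and 0.53. Of 6 genes of the myotendinous junction, 3 were called higher by DESeq2 in control (all genes, 2.6%) and 0 in mimic (0.784%). They were Ankrd1, a stretch-responsive gene of muscle fibers, at 2.02, Itga7, an integrin of muscle fibers, at 0.71, and Adamts20 at 1.97 in edgeR (adjusted p = 0.081, 0.072 and 0.055), and in mimic at 0.66, 0.52 and 0.42. Col22a1, the collagen that defines the junction, was at -0.38 in control and -0.76 in mimic.

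Markers of other cells in the sample moved with the 9 genes in part. The 8 muscle fiber markers summed to between 61391 and 172174 CPM over all libraries, as a muscle sample has, with none at 0. The median sum was 113581 CPM in sham control and 96656 in MOV control, and 123351 in sham mimic and 95522 in MOV mimic, with overlap in both. Their median r was -0.50 to Tnmd and -0.43 to Tnc. The 8 leukocyte markers had a median r of 0.70 to Tnmd and 0.68 to Tnc, and the 4 proliferation genes 0.69 and 0.83. Leukocyte markers summed to a median of 934 CPM in sham control and 815 in MOV control, and to 787 in sham mimic and 1232 in MOV mimic, where their median log2FC was 0.45 (control, -0.29). In sham control and MOV control, proliferation genes ranged from 4.90 to 47.9 and 18.8 to 65.2. The 6 satellite cell and regeneration genes summed to 59.0 to 679 CPM in sham control and 281 to 1360 in MOV control, and to 68.0 to 1575 in sham mimic and 77.2 to 1239 in MOV mimic, with a median r of 0.18 to Tnmd and 0.51 to Tnc. The 7 markers of fibro-adipogenic progenitors, interstitial cells that share many genes with tenocytes, summed to 944 to 1309 CPM in sham control and 417 to 821 in MOV control, without overlap, and to 673 to 1187 in sham mimic and 478 to 943 in MOV mimic, with overlap, and none was at 0. By DESeq2, 2 of the 7 progenitor markers (Gsn and Dpp4), 1 of 8 muscle fiber markers (Myh4) and 1 of 4 endothelial genes (Kdr) were lower and 1 of 6 satellite cell and regeneration genes (Pax7) was higher in control, where 3.45% of all genes were lower and 2.6% higher. In mimic 1 progenitor marker (Gsn) and 2 endothelial genes (Cdh5 and Tek) were lower and 1 of 8 leukocyte markers (Cd74) was higher, where 0.617% of all genes were lower and 0.784% higher. EdgeR without a covariate called none of these. The 4 endothelial genes summed to 222 to 284 CPM in sham control and 119.7 to 249 in MOV control, with overlap, and to 248 to 342 in sham mimic and 181 to 202 in MOV mimic, without overlap. Their median log2FC was -0.55 in control, where 3 of 4 had an unadjusted p under 0.05, and -0.67 in mimic, where all 4 did, each toward lower levels (18.2% and 13.4% of all genes had such a p, in either direction). Fibro-adipogenic progenitor markers had a median r of 0.53 to Tnmd and 0.52 to Tnc. To Tnmd, endothelial genes had a median r of 0.28, Schwann cell and perineurial genes -0.27 and adipocyte genes -0.076. With 3 of 4 adipocyte genes tested in each MOV comparison, their median log2FC was -1.65 in control and -1.40 in mimic, and none was called by edgeR or DESeq2. Of the cartilage list Snorc was at 0 in all libraries. The part of any of these cells in the levels of the 9 genes was not tested.

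Scx lies within the annotated span of Bop1 and Chad within that of Acsf2, and Comp and Tnc overlap the noncoding genes Gm51533 and 8030451A03Rik. The strand setting of the counts is not given in the sources used here, and only the spans of the genes were compared, not their exons. Whether reads of these genes and their neighbors were counted apart was not tested. Bop1, a ribosome biogenesis gene, was between 23.9 and 48.9 CPM over the 20 libraries with an r of -0.51 to Scx, and Acsf2 between 1.90 and 9.23 CPM with an r of -0.24 to Chad, so neither neighbor rose and fell with the gene inside it.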

How the data were processed

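RNA-seq of 20 plantaris libraries was analysed. The authors trimmed reads with Trim Galore 0.6.10 and Cutadapt (version 4.4), aligned them to GRCm38 with Hisat2 2.0.5 and counted them per gene with featureCounts 1.5.0-p3, and deposited raw counts of 54532 Ensembl genes per library without normalization. The annotation release, strand setting and treatment of multi-mapping reads are not given in the sources used here. Totals were between 12036360 and 23056525 counts per library. Groups came from the sample labels. Genes were matched to symbols for 32640 of 54532 genes. CPM used TMM factors over 20 libraries. Differential expression was tested with edgeR 4.0.16 in R 4.3.3 (quasi-likelihood F test, TMM, filterByExpr, the 10 libraries compared, two-sided, Benjamini-Hochberg adjusted p under 0.05), and on 20 libraries for the interaction. p-values measure only the spread between these samples. DESeq2 1.42.0, its size factors in edgeR, no filter, a replicate block, all 20 libraries, each library left out and, added after the values were seen, Tnmd or Kera as covariate and DESeq2 with the block were the alternatives. Log2 ratios used a prior of 2 counts. Exon lengths were from GENCODE M1 (NCBIM37) and promoters from RefSeq. The 97 list genes, in 13 lists, all matched. All 9 genes are named in every comparison. From each list, called genes with the largest change were to be named, and as edgeR called none, those named were chosen after their values were seen. The 9 genes and the lists were chosen with earlier results of these data known. No library was a copy of another (lowest chi-square per gene 13.9 over 40 pairs).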

Additional observations from a re-analysis of the deposited data

How the results depend on the processing

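The directions of the log2FC of Scx, Tnc, Fmod, Thbs4 and Chad for MOV against sham were kept in every fit run for both control and mimic. Directions of the log2 ratios were not all kept. The difference for Fmod in control was -0.78 against Tnmd and 0.29 against Kera. Relative to Tnmd, those for Scx, and for Thbs4 in mimic, changed sign with 1 library left out. No setting of the fits other than DESeq2 (1 gene of the 9, Chad, in each) and the Tnmd covariate in control (4) called a gene of the 9. With that covariate and 1 library left out, Fmod, Scx and Thbs4 were each called in 1 of 10 fits. Counts over all genes depended on the setting. For MOV control against sham control they were 1 by edgeR, 905 by DESeq2, 388 with no filter, 36 with all 20 libraries, 891 with the Tnmd covariate and 0 with the Kera covariate, and from 0 to 426 with 1 library left out (426 without sham control 3, 318 without MOV control 5). For MOV mimic against sham mimic they were 0 by edgeR, 209 by DESeq2, 1 with no filter and 3 with all 20 libraries, and from 0 to 101 with 1 library left out (101 without MOV mimic 5). For MOV mimic against MOV control they were 0, with 3 by DESeq2, 1 with all 20 libraries and 127 by DESeq2 with the replicate block, and for the interaction 0, with 1 by DESeq2. The cause of these differences was not tested. With each library left out, the genes of the 9 without overlap in control numbered from 0 to 1, Tnc without sham control 3 or MOV control 5 and Chad without sham control 4.

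Several log2FC changed sign, none of them called by edgeR without a covariate. For MOV control against sham control these were Mkx (0.26) and Comp (0.26) with the Kera covariate. For MOV mimic against sham mimic they were Comp (-0.36) and Kera (-0.52) with the Tnmd covariate, and Kera (-0.031) with the replicate block. For MOV mimic against MOV control Fmod was at -0.0056 with no filter and -0.011 with all 20 libraries. For sham mimic against sham control Mkx was at -0.0050 with the replicate block and -0.00029 by DESeq2 with the block, and in the interaction Thbs4 was at 0.028 with the block. With each library left out, the log2FC ran from -0.040 to 0.69 for Tnmd in MOV control against sham control, from -0.34 to 0.31 for Comp and -0.35 to 0.37 for Kera in mimic, from -0.019 to 0.61 for Tnmd, -0.22 to 0.20 for Fmod and -0.57 to 0.0047 for Chad in MOV mimic against MOV control, from -0.18 to 0.40 for Scx, -0.21 to 0.24 for Mkx, -0.26 to 0.59 for Tnmd, -0.041 to 0.33 for Fmod, -0.18 to 0.26 for Comp, -0.16 to 0.64 for Tnc, -0.11 to 0.44 for Kera and -0.0057 to 0.60 for Chad in sham mimic against sham control, and from -0.18 to 0.40 for Scx, -0.34 to 0.51 for Tnmd, -0.32 to 0.10 for Fmod and -0.28 to 0.18 for Thbs4 in the interaction. With Kera in place of Tnmd as the reference, differences of ratios in control were 0.49 for Mkx, 0.29 for Fmod, 1.53 for Thbs4, 0.39 for Comp, 2.94 for Tnc and -0.92 for Chad, and in mimic -0.59 for Fmod and 0.19 for Comp.

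The labels do not say that equal replicate numbers of mimic and control are 1 mouse, and the deviations of equal numbers from their group means over 13952 genes had a mean r of 0.26, from 0.0096 to 0.77, with 8 of 10 over 0.1 and 5 of 10 libraries closest to their own number (other numbers, -0.059). As the labels do not state it and 2 of 10 were at 0.1 or under, the number was not treated as a pairing, which does not show that the libraries are unpaired. Between MOV and sham equal numbers join different mice, so the block there matches nothing within a mouse. The replicate block in edgeR called 0 of the 9 genes in each comparison, and over all genes 1 in MOV control against sham control and 0 in the others. Counts per library were as low as 16 for Mkx and 0 for Chad, and at least 65 for the other genes.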
